A study of Mus musculus with 28 samples.

Results

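The data described here are the liver transcript levels of 9 hepatocyte transcription factors, Hnf4a, Foxa1, Foxa2, Foxa3, Cebpa, Cebpb, Nr1i2, Nr1i3, and Onecut1. They were chosen by name, as the genes whose Ensembl identifiers map to these symbols, and are 9 of the 49585 features in the table. Each passed the filter on low counts, which kept 21583 genes. Liver RNA was sequenced from 28 mice of the strain C57BL/6JOlaHsd, aged 5 to 7 months by their labels and fasted for a few hours before sacrifice, to compare mice that overexpress the deacylase SIRT6 (SIRT6-tg) with wild-type (WT) mice of each sex. Each sex and genotype was represented by 7 libraries, giving 4 groups. All SIRT6-tg mice came from a single transgenic line, backcrossed to this strain, and the WT mice were littermates that carried no transgene. The promoter of the transgene in this line is not given in the sources used here.

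Hepatocyte identity is held by a small network of DNA-binding proteins that activate each other and bind together at the enhancers of liver genes. FOXA proteins are pioneer factors that open chromatin, HNF4α is a nuclear receptor at the centre of the network, C/EBPα and C/EBPβ are leucine zipper proteins of metabolism and of the acute phase response, and HNF6, the product of Onecut1, is a cut-homeodomain protein first needed in liver and bile duct development. PXR (Nr1i2) and CAR (Nr1i3) are nuclear receptors that sense drugs and bile acids and induce cytochrome P450 genes.

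The DNA just before the start sites of the 5 members that passed the test in at least 1 comparison is printed here, because it shows how these promoters differ in base composition and in matches to the motifs of the network itself. RefSeq windows on GRCm38.p6 covered 250 bases before and 50 bases after each start site, and 12 such windows matched the 9 members. Motifs were searched on both strands as the letters TGTTTNC (FOXA), ATTGATT (ONECUT), TTNCNNAA (C/EBP), CAAAGTC (HNF4), and GTTAAT (HNF1, a liver factor not among the 9). N is any base, and matches of different motifs may overlap. The 250 bases before the start are given 5′ to 3′ along the gene's strand, with every motif match in capitals. For Foxa2 the window of the outermost of its 3 starts is shown.
Cebpa, chr7:35119043-35119292, plus strand: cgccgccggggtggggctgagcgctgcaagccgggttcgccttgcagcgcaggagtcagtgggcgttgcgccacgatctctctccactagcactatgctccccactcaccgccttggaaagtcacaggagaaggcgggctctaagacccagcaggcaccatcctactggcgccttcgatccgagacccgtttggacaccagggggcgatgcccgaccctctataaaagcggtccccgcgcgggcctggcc
Foxa1, chr12:57546112-57546361, minus strand: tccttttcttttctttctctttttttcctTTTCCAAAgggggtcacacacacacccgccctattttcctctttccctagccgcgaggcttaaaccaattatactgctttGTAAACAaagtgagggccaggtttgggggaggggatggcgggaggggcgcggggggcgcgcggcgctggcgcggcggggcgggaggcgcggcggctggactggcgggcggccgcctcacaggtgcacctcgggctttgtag
Foxa2, chr2:148046970-148047219, minus strand: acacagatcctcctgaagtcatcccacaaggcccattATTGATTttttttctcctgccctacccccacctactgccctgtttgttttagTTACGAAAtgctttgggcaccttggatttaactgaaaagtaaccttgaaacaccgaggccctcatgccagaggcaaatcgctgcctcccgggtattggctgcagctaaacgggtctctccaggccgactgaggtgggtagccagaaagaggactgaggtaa
Cebpb, chr2:167688665-167688914, plus strand: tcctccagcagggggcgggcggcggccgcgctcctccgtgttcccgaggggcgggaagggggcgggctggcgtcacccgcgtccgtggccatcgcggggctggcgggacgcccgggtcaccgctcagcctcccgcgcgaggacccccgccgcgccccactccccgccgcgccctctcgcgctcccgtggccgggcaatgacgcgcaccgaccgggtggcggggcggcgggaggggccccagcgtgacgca
Nr1i3, chr1:171213720-171213969, plus strand: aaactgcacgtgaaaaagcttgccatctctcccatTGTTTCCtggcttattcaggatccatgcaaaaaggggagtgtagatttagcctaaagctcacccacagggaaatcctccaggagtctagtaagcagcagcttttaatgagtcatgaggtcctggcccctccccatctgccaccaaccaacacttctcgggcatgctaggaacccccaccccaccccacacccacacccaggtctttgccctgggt

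The Cebpa sequence held no match to any of these motifs, and neither did that of Cebpb. The Foxa1 stretch held a C/EBP match from base -221 and a FOXA match, read on the other strand, from base -141. In Foxa2, an ONECUT match began at base -213 and a C/EBP match, which reads on both strands, at base -161. Nr1i3 held a FOXA match from base -215. Among the 12 windows, 4 held a FOXA match, where 20.5% of all 32851 windows of this length did. A C/EBP match was in 3 of the 12 and in 40.7% of all windows, an ONECUT match in 2 and in 2.86%, and an HNF4 match in 0 and in 4.44%. An HNF1 match was in 2 of the 12, windows of Foxa2 and Hnf4a that are not printed, and in 7.10% of all windows. GC content of the printed stretches was 81.6% for Cebpb, 66.4% for Cebpa, 62.0% for Foxa1, 53.2% for Nr1i3, and 50.8% for Foxa2. The Foxa1 stretch lies in an intron of the Gencode gene model except for 10 exonic bases next to the start, and the other 4 printed stretches hold no annotated exon.

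Between 18758863 and 35393069 reads were counted on genes per library, and the members had between 49 counts (Onecut1 in a female SIRT6-tg library) and 21134 counts (Hnf4a in another). Sirt6, the overexpressed gene, checked the labels: it lay between 1.69 and 6.22 CPM in the 14 WT libraries, between 198 and 358 in male SIRT6-tg, and between 16.4 and 50.2 in female SIRT6-tg libraries. CPM are counts relative to library size after trimmed mean of M-values (TMM) scaling. The liver label was checked with 15 hepatocyte markers, which had a summed level of 115560 to 226882 CPM, whereas pancreatic acinar markers summed to at most 3.54 CPM. The labels give sex, genotype, and replicate number but no batch, and the column headers add a running S number of unstated meaning, which falls in separate blocks for the 4 groups, so an effect of whatever it records and the groups cannot be told apart.

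Ranked per length, the 9 factors covered a wide range of levels (CPM per kilobase of exon, mean of 28 libraries). Cebpa was highest at 203, followed by Hnf4a at 113, Cebpb at 66.7, Foxa3 at 32.2, Nr1i2 at 30.3, Nr1i3 at 14.01, Foxa2 at 11.4, Foxa1 at 4.92, and Onecut1 at 2.62. Of all genes tested, 98.9% lay below Cebpa and 66.6% below Onecut1. Foxa3 stood above Foxa2 and Foxa1. Of the neighbours in this order, Foxa2 exceeded Foxa1 in 28 of 28 libraries, and their ranges overlapped in 0 of 4 groups. Nr1i2 exceeded Nr1i3 in 28 libraries and Cebpa exceeded Hnf4a in 27, with overlap in 1 group each, and Cebpb exceeded Foxa3 in 27, with overlap in 2. The ranges of Hnf4a and Cebpb (22 of 28 libraries) and of Nr1i3 and Foxa2 (18 of 28) overlapped in 3 of 4 groups each. In all 4 groups Foxa1 overlapped with Onecut1, although it was higher in 25 of 28 libraries, and Foxa3 with Nr1i2, than which it was higher in 15.

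Some of these positions are uncertain because other genes overlap the exons. The libraries do not mark strand, so reads of genes on opposite strands cannot be separated in shared exons. The strand setting of the counting is not given either. Tomm40l, on the opposite strand, covers 74.9% of the exon bases of Nr1i3, Gm20649 covers 52.8% of those of Onecut1 on the same strand, and Tmem189 covers 20.7% of those of Cebpb on the opposite strand. Tomm40l had a median count equal to 12.5% of that of Nr1i3, and Gm20649 had 0 counts in all 28 libraries, which allows up to 3 counts in each. Divided by the exon bases that no other gene shares, the mean level of Nr1i3 was 55.7 CPM per kilobase, which would place it above Foxa3, and that of Onecut1 was 5.55, which would place it above Foxa1.

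**Figure D1:**
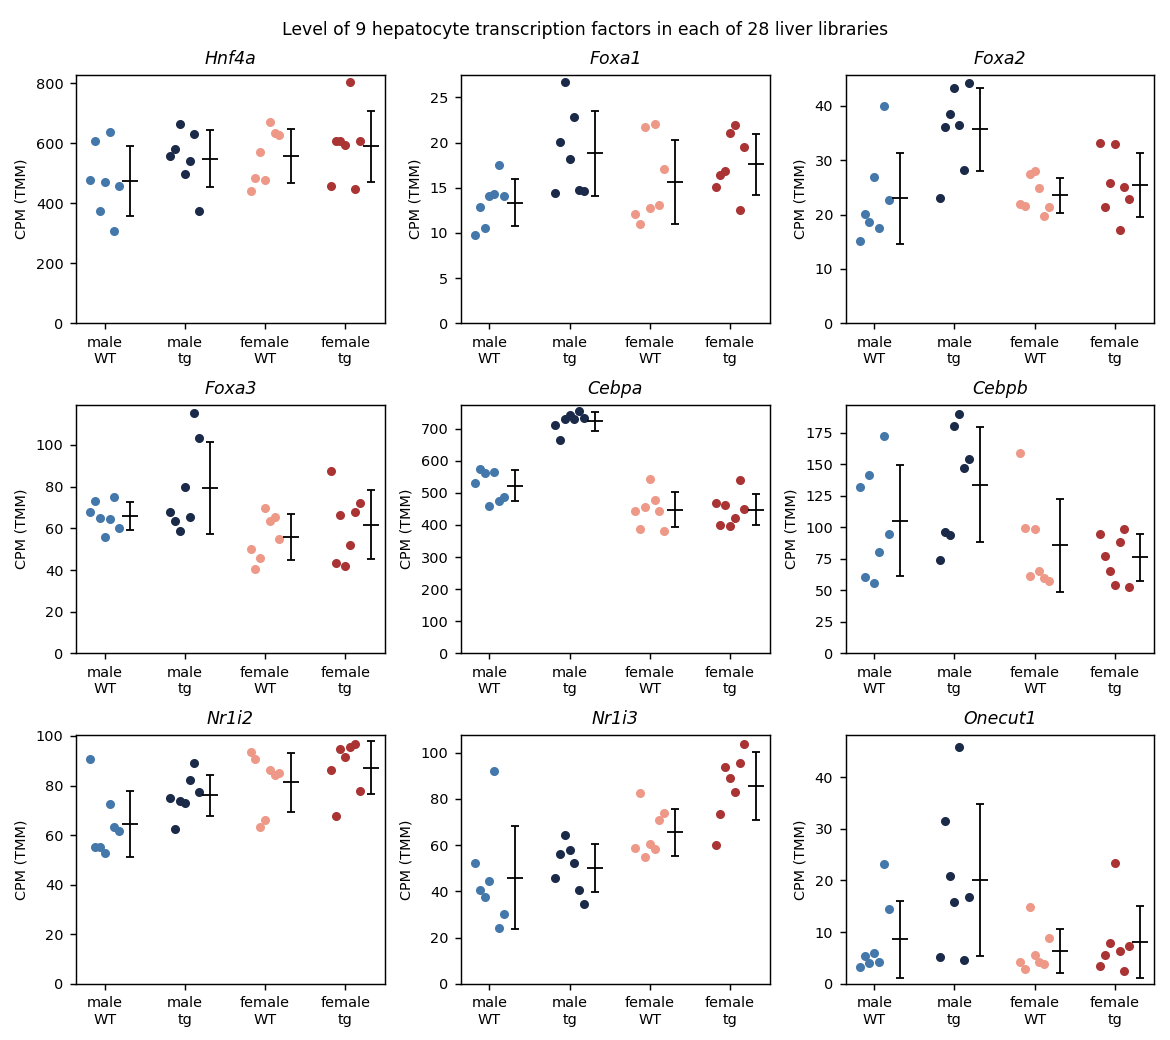
Levels of the 9 factors in TMM-scaled CPM (linear axes from 0), with 1 point per liver library and the mean ± SD of 7 libraries beside each group. The 7 male SIRT6-tg points of Cebpa, from 664 to 756 CPM, lie above all male WT points, which end at 575 CPM.

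In males, Cebpa, Foxa1, and Foxa2 rose in SIRT6-tg relative to WT livers, and the other 6 factors did not pass the test. Thus 3 of 9 members were called (edgeR, adjusted p-value under 0.05), all higher, where 20.7% of all genes tested were called and 9.68% were called higher. All 9 log2 fold changes were above 0 with a median of 0.35, but this sign was also that of 68.7% of the 11272 genes whose normalized counts averaged 50 or more, whose median was 0.13, and the median of all genes was 0.06. In bulk tissue, a larger share of hepatocytes and more RNA per hepatocyte cannot be told apart.

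Cebpa, which drives genes of gluconeogenesis, urea synthesis, and lipid metabolism in mature hepatocytes, ranged from 458 to 575 CPM in male WT (median 530) and from 664 to 756 CPM in male SIRT6-tg livers (median 730). Every male SIRT6-tg library thus lay above every male WT library, which holds for 6.98% of all genes in either direction. The mean was 522 ± 48.3 CPM in WT and 724 ± 29.6 CPM in SIRT6-tg (SD, n = 7 each). This was a 1.39-fold rise, a log2 fold change of 0.47 with a standard error (SE) of 0.086, a 95% interval of 0.30 to 0.65, and an adjusted p-value of 1.34e-04 (edgeR). Cebpa was also the member with the smallest spread, with a coefficient of variation of 4.08% in male SIRT6-tg livers.

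Foxa2, which supports bile acid and fasting metabolism, ranged from 15.2 to 39.9 CPM in male WT (median 20.2) and from 23.02 to 44.3 CPM in male SIRT6-tg livers (median 36.4). The ranges overlapped, and WT mouse 6 at 39.9 CPM stood above the next WT library at 26.8 CPM. Mean levels were 22.99 ± 8.36 and 35.7 ± 7.68 CPM, a 1.55-fold rise (log2 0.63, SE 0.18, edgeR adjusted p = 0.00920). Foxa1, which overlaps with Foxa2 in opening liver enhancers, ranged from 9.75 to 17.5 CPM in male WT (median 14.1) and from 14.4 to 26.7 CPM in male SIRT6-tg livers (median 18.2). There, 4 of 7 SIRT6-tg libraries exceeded the highest WT library. The means of 13.3 ± 2.60 and 18.8 ± 4.71 CPM gave a 1.41-fold rise (log2 0.50, SE 0.17, adjusted p = 0.0354). The call for Foxa1 was the least secure of the 3, since it was lost in 8 of 14 fits that left out 1 library, with adjusted p-values of 0.0611 to 0.105. These libraries were male WT 1, 2, 3, and 4 and male SIRT6-tg 2, 3, 4, and 5. The calls for Cebpa and Foxa2 held in all 14. DESeq2 called these 2 and not Foxa1 (adjusted p = 0.0526).

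Foxa3, which maintains the expression of metabolic genes in adult liver, ranged from 55.97 to 75.1 CPM in male WT (median 65.1) and from 58.6 to 115 CPM in male SIRT6-tg livers (median 68.0), with overlapping ranges and an uncalled log2 difference of 0.26 (SE 0.16, adjusted p = 0.265). Hnf4a, the nuclear receptor of the network, lay between 309 and 637 CPM in male WT (median 470) and between 374 and 663 CPM in male SIRT6-tg livers (median 558). Those ranges overlapped almost wholly, and the log2 difference was 0.21 (95% interval -0.10 to 0.51, adjusted p = 0.361). The antisense transcript Hnf4aos, which shares no exon base with Hnf4a, rose by 1.25 on the log2 scale (adjusted p = 0.00213), and it was looked at after its value was seen.

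Cebpb, the inducible C/EBP of fasting and inflammation, varied widely within each group, from 55.999 to 172 CPM in male WT (median 94.8) and from 74.3 to 190 CPM in male SIRT6-tg livers (median 147). The log2 difference of 0.35 (SE 0.26, adjusted p = 0.397) was within this spread. Nr1i2, which encodes PXR, had a log2 difference of 0.24 (SE 0.12, adjusted p = 0.151) between medians of 61.7 and 74.9 CPM, and without male WT library 1, the highest of its group at 90.6 CPM, it was called (0.31, adjusted p = 0.0368). For Nr1i3, which encodes CAR, the difference was 0.13 (SE 0.20, adjusted p = 0.698), between 24.02 and 92.0 CPM in WT and between 34.6 and 64.2 CPM in SIRT6-tg livers.

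Onecut1 showed the largest fold change of the 9 factors in males and the largest spread. It ranged from 3.24 to 23.1 CPM in male WT (median 5.43) and from 4.54 to 45.9 CPM in male SIRT6-tg livers (median 16.8). The high values of the WT group came from mouse 6 (23.1 CPM) and a library at 14.5 CPM, whereas 2 SIRT6-tg libraries exceeded all WT libraries. The log2 difference of 1.22 (SE 0.55, 95% interval 0.10 to 2.35) was not called, at an adjusted p of 0.118, but without male WT library 6 it was 1.68 with an adjusted p of 0.0306.

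In females, none of the 9 factors passed the test, 0 of 9 against 0.0278% of all genes, and 0 had an unadjusted p-value under 0.05, as 5.62% of all genes had. DESeq2 also called 0. For Cebpa, female WT livers ranged from 381 to 543 CPM (median 444) and female SIRT6-tg livers from 396 to 539 CPM (median 450), which overlapped completely. The log2 difference was 0.0011 with a 95% interval of -0.17 to 0.18. For Foxa2 it was 0.11 (-0.25 to 0.47), between medians of 22.0 and 25.0 CPM, and for Foxa1 0.17 (-0.18 to 0.52), between medians of 13.1 and 16.8 CPM. The other uncalled values were 0.08 for Hnf4a, 0.15 for Foxa3, -0.17 for Cebpb, 0.10 for Nr1i2, and 0.34 for Onecut1.

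The smallest p-value among the factors in females was that of Nr1i3. It ranged from 55.1 to 82.7 CPM in female WT (median 60.4) and from 60.2 to 104 CPM in female SIRT6-tg livers (median 89.2), so that 5 of 7 SIRT6-tg libraries lay above the highest WT library. Its log2 difference was 0.38 (SE 0.20, 95% interval -0.02 to 0.78) with an unadjusted p of 0.0612 (edgeR quasi-likelihood test) and an adjusted p of 0.923. Tomm40l, whose exons overlap those of Nr1i3, had a log2 difference of 0.47 in females and 0.12 in males, and its part in the Nr1i3 value was not tested.

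**Figure D2:**
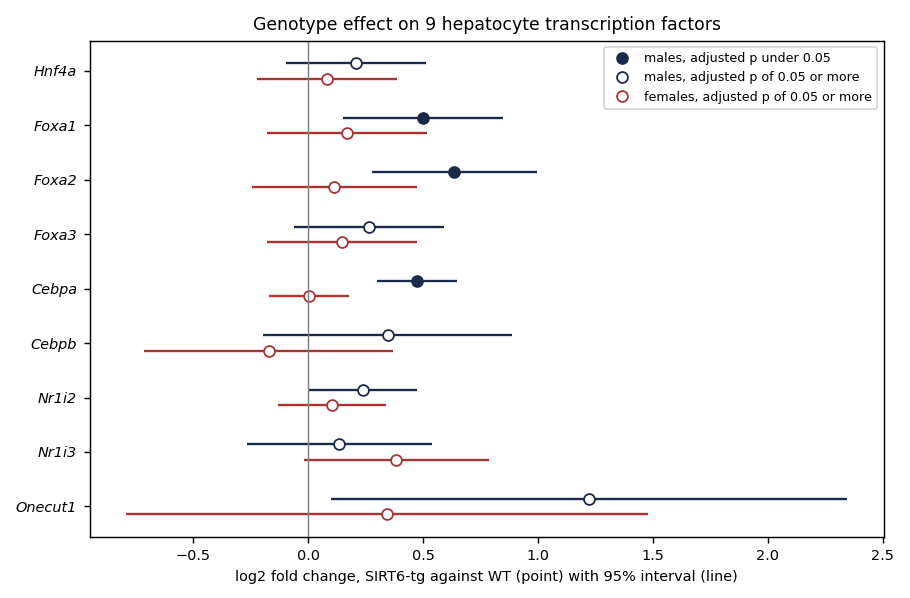
Log2 fold change of SIRT6-tg against WT livers (horizontal axis) for the 9 factors in males (dark) and females (red), with 95% intervals from edgeR. Filled points mark the 3 calls, which are Cebpa at 0.47, Foxa1 at 0.50, and Foxa2 at 0.63 in males.

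The genotype effect on Cebpa differed between the sexes. The male effect exceeded the female effect by 0.47 on the log2 scale (SE 0.12, 95% interval 0.22 to 0.72, edgeR adjusted p = 0.0180), and this was the only call among the 9 members, where 5.05% of all genes were called. Sirt6 itself rose by 6.68 on the log2 scale in males and by 3.39 in females. Sex and the level of overexpression therefore cannot be told apart in this contrast. The call held with RLE scaling (0.43, adjusted p = 0.0350) and with DESeq2, and it was lost with upper-quartile scaling (0.40, adjusted p = 0.0501), with library size alone (0.18, 0.376), and with hepatocyte markers as the scale (0.055, 0.820). Without male WT library 4 the adjusted p was 0.0513 (0.41 on the log2 scale). For Foxa2 the difference was 0.52 with an unadjusted p of 0.0436 and an adjusted p of 0.250 (quasi-likelihood F-test), and without male WT library 6 it was 0.71 with an adjusted p of 0.04996, just under the threshold. Foxa1, called in males and not in females, had a difference of 0.33 (95% interval -0.16 to 0.82, adjusted p = 0.494), so its effect was not shown to differ between the sexes.

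The male calls likewise depend on how the libraries are scaled. TMM factors were 1.062 to 1.17 in male WT and 0.821 to 0.993 in male SIRT6-tg libraries, without overlap. They were 0.908 to 1.02 in female WT and 0.906 to 1.058 in female SIRT6-tg libraries. The male WT factors thus lay above those of all other libraries. With library size alone, none of the 9 members was called in males, and the log2 fold changes were 0.19 for Cebpa (adjusted p = 0.0996), 0.33 for Foxa2 (0.210), and 0.23 for Foxa1 (0.459), while the median of all genes moved from 0.06 to -0.22. With 15 hepatocyte markers as the scale the values were 0.16, 0.29, and 0.19, none was called, and the median of all genes was -0.25. Under both scalings Cebpa, Foxa1, Foxa2, Cebpb, and Onecut1 stayed above 0, whereas Hnf4a, Foxa3, Nr1i2, and Nr1i3 lay below 0. RLE scaling called Cebpa and Foxa2 (0.43 and 0.59), as upper-quartile scaling did (0.39 and 0.55), and fitting each sex separately called Cebpa alone (0.39, with 0.0591 as the adjusted p of Foxa2). Among all genes called in males, the share called higher was 46.8% with TMM, 35.7% with RLE, 26.2% with the upper quartile, and 4.89% with library size alone.

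**Figure D3:**
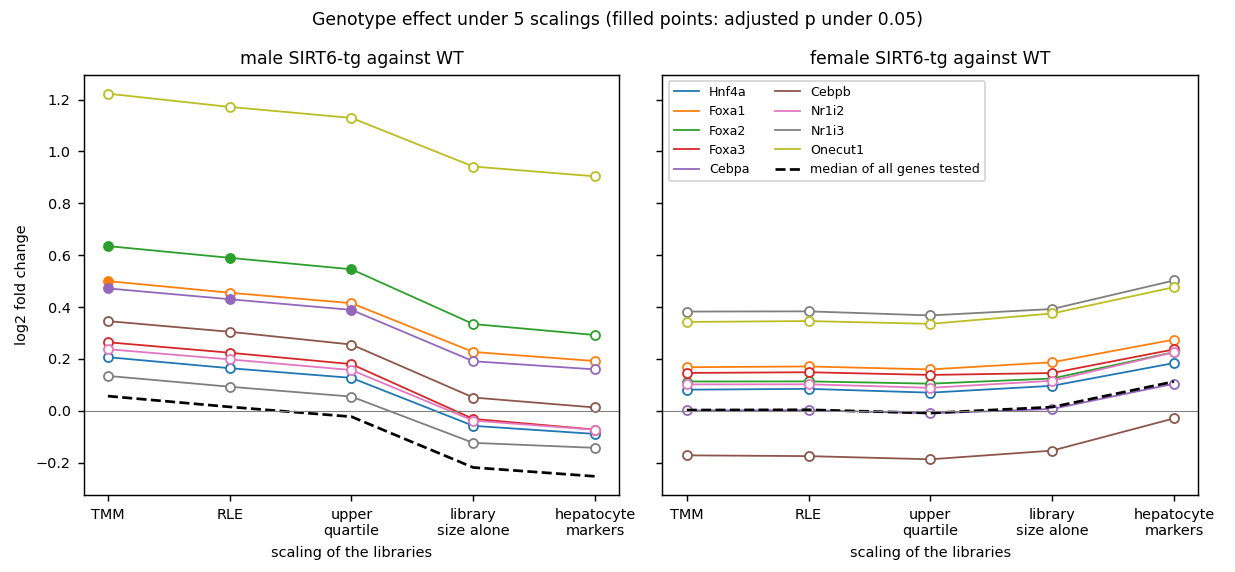
Log2 fold changes of SIRT6-tg against WT (vertical axis) in males (left) and females (right) under 5 ways of scaling the libraries, with filled points for adjusted p-values under 0.05 and a dashed line for the median of all genes tested. In males that median moved from 0.06 with TMM to -0.25 with hepatocyte markers, and the 9 factors moved down with it.

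With TMM scaling, 11 of 15 hepatocyte markers were called higher in male SIRT6-tg livers, where 9.68% of all genes were, and 0 were called lower. The log2 fold changes of the 15 had a median of 0.36 and ran from -0.46 to 0.51. The summed level of these markers was 115560 to 158827 CPM in male WT and 141009 to 186270 CPM in male SIRT6-tg libraries. With library size alone, 0 of them were higher and 1 was lower. Markers of several other cell types fell, where 11.0% of all genes were called lower, with 9 of 9 macrophage and Kupffer cell markers called (330 to 1031 CPM summed in WT and 279 to 464 in SIRT6-tg), 8 of 8 T and NK cell markers (15.9 to 67.2 and 3.62 to 9.37 CPM), and 8 of 8 stellate cell and fibroblast markers (373 to 619 and 255 to 348 CPM). Of the remaining lists, 1 of 4 neutrophil markers, 1 of 7 sinusoidal endothelial markers, and 1 of 6 pancreatic acinar markers were called lower. The last, Ctrb1, reached 1.35 CPM in 1 male WT library and had a median of 0 CPM in both male groups. Of the cholangiocyte markers, 0 of 8 were called, with a sum of 37.3 to 91.5 CPM in WT and 35.02 to 58.3 CPM in SIRT6-tg livers. Among the markers tested, none was at 0 counts in all libraries of a group, a check that covers only genes that passed the filter on low counts. Ly6g, the other of 5 listed neutrophil markers, was not among the genes tested. In females 0 genes of these lists were called, where 0.0278% of all genes were called. For the difference of the genotype effect between the sexes, 5.05% of all genes were called. There, 7 of 8 T and NK cell, 4 of 8 stellate cell and fibroblast, and 2 of 9 macrophage and Kupffer cell markers were called lower. Of the hepatocyte markers, 3 of 15 were called higher. The part of these shifts in the levels of the 9 factors was not tested.

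Between the sexes, WT livers differed in none of the 9 factors by edgeR, against 12.4% of all genes called, and 3 had an unadjusted p-value under 0.05, as 25.1% of all genes had. DESeq2 called 2 of these, Cebpa and Nr1i2. The values of the 3 were 0.22 for Cebpa (male against female, adjusted p = 0.0898), -0.33 for Nr1i2 (0.0553), and -0.52 for Nr1i3 (0.0836). For Nr1i3, 6 of 7 male WT libraries lay below the lowest female WT library of 55.1 CPM, and male WT library 5 was at 92.0 CPM, the highest of all WT libraries. Without that library the difference was -0.78 with an adjusted p of 9.17e-04. Nr1i2 was likewise called without male WT library 1 (-0.41, adjusted p = 0.0101) or 5 (-0.36, 0.0427) and without female WT library 3 (-0.39, 0.0279) or 4 (-0.36, 0.0358), and Cebpa without male WT library 4 (0.26, 0.0496) or female WT library 4 (0.29, 0.0176). The sign of Nr1i2 depended on the scale, at 0.09 with hepatocyte markers, under which Foxa3 (0.65), Cebpa (0.64), and Cebpb (0.78) were called higher in males and the median of all genes was 0.42. That scale called 8377 of 21583 genes, 96.5% of them higher in males. With TMM, 10 of the 15 hepatocyte markers were themselves called lower in WT males, where 5.71% of all genes were. All 8 T and NK cell markers were called higher in WT males, with a median log2 difference of 1.55. So were 2 of 8 stellate cell and fibroblast markers and 1 of 9 macrophage and Kupffer cell markers. Across all genes, 12.4% were called in either direction. Of 8 cholangiocyte markers, 2 were called lower. The part of these differences in the male genotype comparison was not tested.

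Between SIRT6-tg livers of the 2 sexes, 4 of 9 factors were called, against 23.1% of all genes. Sirt6 was itself higher in the males by 3.22 on the log2 scale, so sex and the level of overexpression cannot be told apart here. Cebpa was higher in males by 0.69 on the log2 scale (SE 0.086, edgeR adjusted p = 6.54e-07), with male libraries from 664 CPM upward and female libraries up to 539 CPM, so that the ranges did not overlap, as for 6.13% of all genes. Nr1i3 was lower in males by a log2 difference of -0.77 (SE 0.20, adjusted p = 0.00529), with 6 of 7 male libraries below the lowest female library of 60.2 CPM. Both calls held under each alternative scaling, with Cebpa between 0.59 and 0.69 and Nr1i3 between -0.86 and -0.77, and in all 14 fits that left out 1 library. Cebpb (0.81, adjusted p = 0.0271) and Foxa2 (0.49, adjusted p = 0.0434) were called higher in males as well, but less securely. The Foxa2 call was lost with RLE (adjusted p = 0.0593), upper-quartile (0.104), library-size (0.131), and hepatocyte-marker scaling (0.0881), and both calls were lost without a filter beyond a count above 0 (0.0568 for Foxa2 and 0.0534 for Cebpb). With library size alone, Nr1i2 was called lower in males (-0.30, adjusted p = 0.0479). The Foxa2 call was also lost in 10 of 14 fits that left out 1 library (adjusted p up to 0.101) and that of Cebpb in 5 (up to 0.0639). Cebpb lost its call without male SIRT6-tg library 4 or 5 or female library 3, 4, or 7, and Foxa2 without male library 2, 3, 4, 5, or 7 or female library 2, 3, 5, 6, or 7. Foxa3 was called without female library 1 (0.47, adjusted p = 0.0286), and Onecut1 without female library 4 (1.86, adjusted p = 0.0187). These comparisons share their SIRT6-tg libraries with the genotype comparisons given before.

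Other transcription factors of the liver were counted next. Of 24 liver-enriched factors and nuclear receptor partners, 3 rose in male SIRT6-tg livers and 0 fell, with a median log2 fold change of 0.22. For this and the following lists, the shares of all genes tested are 9.68% called higher and 11.0% called lower in males, and the median of all genes is 0.06. They were Creb3l3, a factor of fasting lipid metabolism (0.42, adjusted p = 0.00989), Xbp1, a factor of secretory protein folding (0.45, 0.0113), and Mlxipl, which encodes the glucose-responsive ChREBP (0.43, 0.0404). Nr1h4, which encodes the bile acid receptor FXR, had an uncalled value of 0.28 (adjusted p = 0.0544). Of 10 coactivators and corepressors 0 were called (median -0.03).

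Textbook targets of the factors were then counted, grouped by the factor that regulates them. Of 16 HNF4A targets, 6 rose in males and 0 fell, with a median of 0.33. Otc, an enzyme of the urea cycle, rose from 423 to 564 CPM (median 468) in WT to 557 to 871 CPM (median 661) in SIRT6-tg livers, so that the ranges barely overlapped (log2 0.47, adjusted p = 0.00128). Mttp, which loads lipid onto apolipoprotein B, rose by 0.39 (adjusted p = 0.00526), and Proc, the precursor of anticoagulant protein C, by 0.42 (0.00637). Of 10 FOXA and C/EBPα targets, 3 rose and 0 fell, with a median of 0.32. Fbp1, an enzyme of gluconeogenesis, rose by 0.52 (adjusted p = 0.0117), Tdo2, which degrades tryptophan, by 0.42 (0.0133), and Ass1, of the urea cycle, by 0.40 (0.0156). The gluconeogenic genes G6pc and Pck1, also in this list, had uncalled values of 0.86 (adjusted p = 0.163) and 0.03 (0.961). With library size alone or hepatocyte markers as the scale, 0 genes of either list were called higher.

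Of 17 CAR and PXR targets, 4 rose in male SIRT6-tg livers and 1 fell, with a median of 0.22. Cyp2c37 ranged from 110 to 275 CPM in male WT (median 134) and from 257 to 535 CPM in male SIRT6-tg livers (median 380), which left a small overlap (log2 1.19, adjusted p = 6.34e-05). Cyp2c29 rose by 0.65 (adjusted p = 0.00304) and Cyp2b10, the classical CAR target, by 1.36 (0.0105), from a WT median of 2.67 CPM to 5.77 CPM. Gstm3 fell by 1.31 (adjusted p = 0.00288). Reads of these cytochrome P450 genes may be shared among near-identical family members, so their single values are uncertain. With library size alone 2 of the 17 were called higher, and with hepatocyte markers 1. In WT mice 9 of 17 were lower in males than in females and 0 were higher, where 5.71% of all genes were called lower. Those with the lowest adjusted p-values (edgeR) were Cyp2b13 (-13.6, 1.15e-22), Cyp2c37 (-2.36, 2.23e-09), and Cyp2b10 (-3.11, 2.39e-06). Cyp2b13 reached at most 0.0502 CPM in male WT livers and lay between 248 and 362 CPM in female WT livers. The part of CAR and PXR in these sex differences was not tested. Nr1i2 and Nr1i3 were themselves not called in either genotype comparison with all libraries in the fit.

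Acute phase genes classed as C/EBPβ targets moved in both directions, with 2 of 15 higher and 6 lower in male SIRT6-tg livers and a median of -0.44. The median of the same list was also -0.44 in females, where none of its genes was called. Lcn2, which binds bacterial siderophores, fell by 3.75 on the log2 scale (adjusted p = 5.83e-05), Saa2, a serum amyloid, fell by 2.77 (8.96e-05), and Il1rn, the interleukin 1 receptor antagonist, fell by 2.14 (1.29e-07). Hamp, the iron hormone hepcidin, rose by 1.18 (1.96e-04), and Fgb, a fibrinogen chain, by 0.40 (0.00973). Cebpb itself was not called in males. In females 0 genes of any of these lists were called, where 0.0278% of all genes were, so the lack of calls does not show a shift in males alone. The genes of a list were not shown to behave differently from other genes, as no list was tested as a whole.

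**Figure D4:**
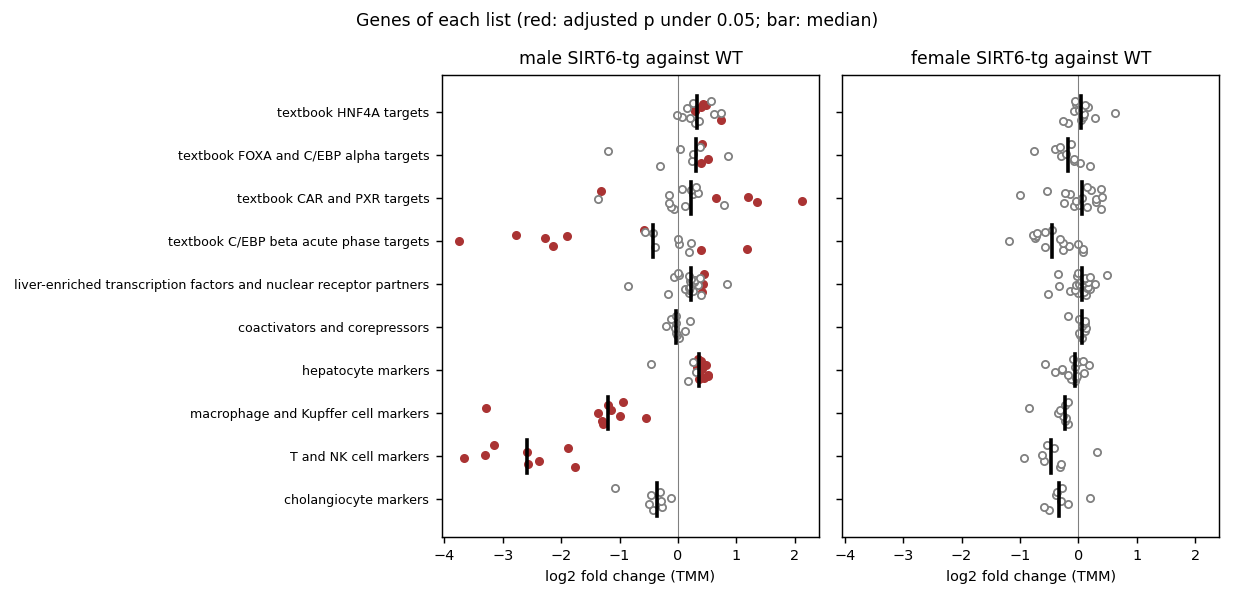
Log2 fold change of SIRT6-tg against WT (horizontal axis, TMM scaling) for every gene of 10 lists, with red points for adjusted p-values under 0.05 and a bar at the median. In males the bar lies at 0.33 for HNF4A targets and at 0.36 for hepatocyte markers, and at -2.58 for T and NK cell markers, while no point is red in females.

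Within groups, correlations between the 9 factors were mixed in sign. Each member's log2 CPM was taken as its deviation from the mean of its group, and deviations were correlated over the 28 libraries, which share their composition and scaling and are given without a test. Of 36 pairs, 17 had a Pearson r above 0 and the median r was -0.06. The highest values were those of Foxa1 and Onecut1 (0.72), Foxa2 and Onecut1 (0.60), Foxa3 and Cebpa (0.57), and Hnf4a and Nr1i3 (0.53). The lowest were those of Hnf4a with Cebpb (-0.63) and with Foxa2 (-0.55). Foxa1 and Foxa2, the closest relatives, had an r of 0.36. In the male WT group, mouse 6 had the highest value of Onecut1 (23.1 CPM), Foxa2 (39.9 CPM), Foxa1 (17.5 CPM), and Cebpb (172 CPM) and the lowest of Hnf4a (309 CPM) and Nr1i3 (24.02 CPM).

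**Figure D5:**
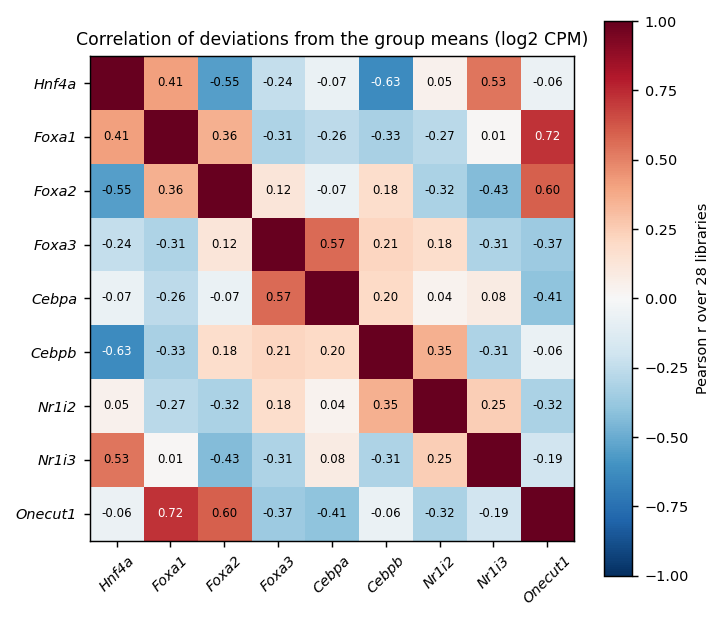
Pearson r between the within-group deviations of each pair of factors over 28 libraries, on a color scale from -1 to 1. The Onecut1 row shows its 2 highest values with Foxa1 (0.72) and Foxa2 (0.60), and the Hnf4a row shows its lowest with Cebpb (-0.63).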

How the data were processed

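RNA of whole liver was sequenced as single-end reads from NEBNext Ultra libraries, which do not mark strand. The authors' aligner was STAR 2.5.0a on the mm10 genome and their counter HTSeq-count with the Gencode vM12 annotation, and the counts were deposited raw, with no normalization and 1 column per library. The strand setting is not given in the sources used here. Groups came from the sample titles.

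The test was edgeR's robust quasi-likelihood F-test (version 4.0.16, R 4.3.3) after TMM scaling. A single fit without covariates held all 28 libraries in 4 groups, and p-values were adjusted after Benjamini and Hochberg over all 21583 genes with a mean of at least 0.5 after DESeq2-type scaling. A gene was called at an adjusted p-value under 0.05. SE is the absolute log2 fold change divided by the square root of F, and intervals are at 95%. Symbols, positions, and exon lengths came from Gencode vM21 of GRCm38, the same build, in which 43749 features keep their versioned identifier. Promoter windows came from RefSeq on GRCm38.p6.

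The members and all gene lists were chosen with earlier results of these data known. Genes named besides the members are, from each list, up to 3 per direction with the lowest adjusted p under 0.05 in a comparison, the 2 genes most like each member, and Sirt6. Apart from this rule, G6pc, Pck1, Nr1h4, and the genes that overlap members were named after their values were seen. Likeness is the Pearson r of within-group deviations of log2 CPM (prior count 2) among genes whose normalized counts averaged 50 or more.

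Libraries of a group all differed by more than sampling noise (chi-square per gene of 13.3 or more), so all were kept. A count of 0 allows up to 3 counts at the 95% level, which covers counting error only. The labels do not say whether replicates are more than separate mice of a group. Alternatives were RLE, upper-quartile, library-size, and hepatocyte-marker scaling, filterByExpr, no filter beyond a count above 0, DESeq2 1.42.0, a replicate-number block, a fit per sex, and each library left out in turn.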

Additional observations from a re-analysis of the deposited data

Results flagged for a closer look

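Within the 36 groups of 7 values (9 factors in 4 groups), a library was singled out where its gap to the nearest value divided by the range of its group exceeded Dixon's critical value at 95%. Chance alone singles out about 1 in 20 groups, and 3 were found. Cebpb was at 159 CPM in female WT library 1, with the next library at 99.3 CPM, and without it the female genotype difference moved from -0.17 to 0.04 on the log2 scale, uncalled both times. Nr1i3 was at 92.0 CPM in male WT library 5, with the next at 52.1 CPM, and without it the male genotype difference moved from 0.13 to 0.40 (adjusted p = 0.0762), while WT males and females then differed by -0.78 (9.17e-04). Onecut1 was at 23.4 CPM in female SIRT6-tg library 4, with the next at 7.87 CPM, and without it the female genotype difference moved from 0.34 to -0.21, again uncalled.

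The genotype effect on Cebpa differed between the sexes by 0.47 on the log2 scale in an edgeR interaction test (adjusted p = 0.0180). This call was lost with upper-quartile, library-size, and hepatocyte-marker scaling (0.40, 0.18, and 0.055) and without male WT library 4 (0.41). The median of all genes was -0.25 with library size alone and -0.38 with hepatocyte markers, against 0.03 with TMM. For Cebpa, all 7 male SIRT6-tg libraries were above all male WT libraries, whereas the female ranges overlapped. Sirt6 rose by 6.68 on the log2 scale in males and by 3.39 in females, so sex and the level of overexpression cannot be told apart.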

How the results depend on the processing

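The number of the 9 factors called in males was 3, and it was 2 with RLE, the upper quartile, or DESeq2 (Foxa2 and Cebpa in each), 0 with library size alone, 0 with hepatocyte-marker scaling, 1 with each sex fitted separately, and between 2 and 4 when a library was left out. Of all 21583 genes, 4467 were called in males with TMM, 3906 with RLE, 3591 with the upper quartile, and 4399 with DESeq2. Library size alone called 4294, hepatocyte markers called 4285, and the separate fit called 3578 of 21579. In females the number of factors called was 0 under every alternative run. For the difference between the sexes it was 1, but 0 with the upper quartile, library size alone, or hepatocyte markers, and 0 to 2 with a library left out. Of all genes, 1089 were called there with TMM, 1083 with the upper quartile, 1863 with library size alone, and 2658 with hepatocyte markers. Between WT males and females the number of factors called was 0, but 1 with the upper quartile or filterByExpr, 2 with library size alone or DESeq2, 3 with hepatocyte markers, and 0 to 2 with a library left out. Of 21583 genes, 2669 were called there with TMM, 2688 with the upper quartile, and 3237 with DESeq2. Library size alone called 4212, hepatocyte markers called 8377, and filterByExpr called 2879 of 14586. Between SIRT6-tg males and females the number of factors called was 4, but 3 with RLE, the upper quartile, or hepatocyte markers (without Foxa2), 4 with library size alone (Nr1i2 in place of Foxa2), 2 without a filter beyond a count above 0, and 2 to 5 with a library left out. Of 21583 genes, 4988 were called there with TMM, 4913 with RLE, and 5002 with the upper quartile. Library size alone called 4860, hepatocyte markers called 4390, and the fit without that filter called 4121 of 32072. Replicate numbers did not pair the samples: 17 of 42 same-numbered pairs had correlated deviations above 0.1 (median 0.06), and 3 of 28 libraries were closest to their own number. With the replicate number as a block 3, 0, 1, 1, and 4 factors were called in these 5 comparisons, Nr1i2 being the added call in WT mice (-0.35). No called value of a factor changed sign. The uncalled values that did were, in males with library size alone and hepatocyte markers, those of Hnf4a (-0.058 and -0.090), Foxa3 (-0.032 and -0.073), Nr1i2 (-0.038 and -0.074), and Nr1i3 (-0.12 and -0.14). For the difference between the sexes they were those of Hnf4a (-0.15 and -0.27), Foxa3 (-0.18 and -0.31), Nr1i2 (-0.15 and -0.30), and, with hepatocyte markers, Foxa1 (-0.083). In WT mice they were Foxa2 (0.16 and 0.40) and, with hepatocyte markers, Hnf4a (0.17), Foxa1 (0.17), and Nr1i2 (0.095). Foxa1 in SIRT6-tg mice was -0.0050 with library size alone, and Cebpa in females was -0.010 with the upper quartile and -0.0069 with filterByExpr. The cause was not tested. With a library left out, the ranges that crossed 0 were, in females, -0.052 to 0.051 for Cebpa, -0.25 to 0.041 for Cebpb, -0.0091 to 0.13 for Hnf4a, and -0.21 to 0.71 for Onecut1. In WT mice they were -0.22 to 0.072 for Foxa2 and -0.030 to 0.80 for Onecut1, in SIRT6-tg mice -0.0096 to 0.16 for Foxa1, and for the difference between the sexes -0.00097 to 0.21 for Foxa3 and -0.36 to 0.015 for Nr1i3.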

Other observations

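For each factor, the genes whose levels followed it most closely were read from the deviations within groups over 28 libraries, among 11271 other genes whose normalized counts averaged 50 or more. All 28 libraries share their scaling and composition, and no test was made. Cebpb was followed most closely by Cebpd, which encodes another C/EBP protein (Pearson r of 0.89), and Psmd9, a proteasome assembly factor (0.88). For Hnf4a they were Atf6, a sensor of unfolded proteins in the endoplasmic reticulum (0.94), and Pcdh1, a protocadherin (0.94), and for Onecut1 they were Arid5b (0.87) and Zfp809 (0.83), which encode DNA-binding proteins. Foxa1 was followed by Slc25a30 (0.85) and E2f8 (0.79), Foxa2 by Phlda1 (0.87) and Gm7652 (0.78), and Foxa3 by Tfg (0.86) and Tnfaip8l1 (0.80). For Nr1i3 they were Gpd1l (0.85) and Rcbtb1 (0.84), for Nr1i2 Snrk (0.73) and Maff (0.72), and for Cebpa Notum, a secreted inhibitor of Wnt proteins (0.71), and Dtwd1 (0.69). None of the 9 factors was among the 2 closest genes of another.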
